A study of Mus musculus with 7 samples.

Results

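The genes described here are the D-type cyclins Ccnd1, Ccnd2 and Ccnd3, the kinases they activate, Cdk4 and Cdk6, and 5 inhibitors of cyclin-dependent kinases (CDKs), Cdkn1a, Cdkn1b, Cdkn1c, Cdkn2c and Cdkn2d. They were found by symbol in a table of raw read counts, which held 1 row for each of them, 10 of 57010 genes in all. Poly-A RNA had been sequenced from resident macrophages of the peritoneal cavity of C57BL/6 mice, sorted live by flow cytometry on CD11b, MHC class II and Tim4 to a stated purity above 97%. The steady-state group held 3 libraries from control mice. The day-12 group held 4 libraries from mice that had been injected with m204 MTO 12 days earlier, a name that the labels do not spell out. The labels name no transgene and no mice that received another injection as a control, and age, sex and any pooling of animals are not stated in them. The labels speak of biological replicates, but not of separate sorts or preparations, so the spread behind each p-value may be partly technical.

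D cyclins bind CDK4 or CDK6, and the active kinase phosphorylates the retinoblastoma protein Rb, which then releases E2F factors that switch on genes of DNA replication. INK4 inhibitors (Cdkn2c encodes p18-INK4c, Cdkn2d p19-INK4d) bind CDK4 and CDK6 and keep them from the cyclin, whereas the Cip/Kip inhibitors (Cdkn1a encodes p21, Cdkn1b p27, Cdkn1c p57) act on several cyclin-CDK complexes and above all on those of CDK2. Resident peritoneal macrophages are long-lived and renew themselves by division in the cavity, so these genes stand at the entry point of their cell cycle.

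Promoter sequence was available for 7 of the 10 genes, as 10 windows of 250 bases upstream of RefSeq starts on GRCm38.p6; no window was used for Ccnd1, Ccnd2 or Cdkn1c. The stretches shown set the 2 kinases beside each other, and Cdkn1a and Cdkn2c were added because they lie downstream of p53 and E2F, whose pathways were also measured. They end before the first annotated exon of the gene, and for Cdkn2c a site with 10 bases on each side is given. The Cdk4 stretch was chr10:127063285-127063533 (plus strand), with the E-box CACGTG in capitals, the Myc-binding palindrome, which it held 4 times. The Cdk6 stretch was chr5:3343643-3343731 (plus strand) and held CACGTG 1 time. The Cdkn1a stretch was chr17:29090729-29090975 (plus strand), with a p53 response element in capitals (2 adjacent half-sites on either strand, at most 1 base off the consensus). The Cdkn2c site was chr4:109666765-109666791 (minus strand), with an E2F core in capitals.
Cdk4: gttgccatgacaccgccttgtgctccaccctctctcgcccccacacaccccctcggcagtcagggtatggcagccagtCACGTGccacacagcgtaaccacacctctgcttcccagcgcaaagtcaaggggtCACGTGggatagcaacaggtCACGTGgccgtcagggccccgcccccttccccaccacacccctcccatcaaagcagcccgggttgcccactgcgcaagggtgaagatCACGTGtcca
Cdk6: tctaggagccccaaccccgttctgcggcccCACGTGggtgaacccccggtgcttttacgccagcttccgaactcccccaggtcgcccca
Cdkn1a: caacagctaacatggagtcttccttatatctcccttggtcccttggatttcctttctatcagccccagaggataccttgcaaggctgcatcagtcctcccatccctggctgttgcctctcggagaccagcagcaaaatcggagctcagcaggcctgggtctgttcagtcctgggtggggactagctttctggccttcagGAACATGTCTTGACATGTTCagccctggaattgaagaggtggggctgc
Cdkn2c: gggcccggccTTCCCGCtcccgcggcg
Of 32851 such windows across the genome, 6.02% held CACGTG, 7.89% an E2F core on either strand, 32.7% the GC box GGGCGG on either strand and 0.0578% (19 windows) the p53 element. The core was counted as TTCCCGC, the form in capitals above, and in its variant forms, with TTGGCGC as one, TTCGCGC as another and TTGCCGC as the last. The definition of the p53 element was set after the Cdkn1a window had been read. The printed Cdkn2c site lies within an exon of a longer annotated transcript, and the Cdkn2d window held 3 GC boxes and none of the other motifs named here. Cdkn2c and Cdkn1a each had a further window at another annotated start, not printed. That of Cdkn2c held no E2F core and that of Cdkn1a no p53 element. A match is a description of these letters and not of binding.

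Totals were 32077050 to 38586694 counts per library, so a floor of 3 counts corresponded to 0.0754 to 0.0958 CPM (read counts scaled to a common library size with TMM factors). Of 15981 genes with enough reads to test, 3242 (20.3%) passed an adjusted p of 0.05 between day 12 and steady state in edgeR's quasi-likelihood test with Benjamini-Hochberg adjustment, 1616 higher (10.1%) and 1626 lower (10.2%). The first principal component separated the groups, and day-12 library 2 lay nearest to steady state on it (25.1, against 47.0 to 61.5 for the other day-12 libraries and -65.5 to -63.3 for steady state). Timd4, which encodes Tim4, was present throughout and fell from 963 ± 80.5 to 495 ± 114 CPM (SD, n = 3 and 4, edgeR adjusted p = 0.00484). The cells were sorted on Tim4 and on CD11b, which Itgam encodes, so the presence of these transcripts is no separate mark of identity. Of the 11 markers of resident macrophages 4 rose (Adgre1, Gata6, Itgam, Mertk) and 2 fell (Timd4, Csf1r), with 1 rising without steady-state library 1 or 3 and 1 falling without any 1 library other than day-12 library 4. Their sum, mostly Prg4 and Alox15, was 27533 to 29238 CPM in steady state and 30699 to 31411 at day 12.

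At day 12 Cdk6 and Cdkn2d rose (1.55-fold and 1.49-fold), Cdkn1c and Cdkn2c fell (3.05-fold and 2.57-fold), and the remaining genes did not pass the test, including Ccnd1, whose mean was 4.17-fold lower but whose day-12 libraries were widely spread. All 10 genes had enough reads to be tested, and 2 rose, 2 fell and 6 did not pass, against 20.3% of all genes tested that passed in either direction. The median log2 change of the 10 was -0.03, beside 0.00 over all genes tested. In 6 of the 10 the groups did not overlap, 3 higher (Cdk6, Cdkn1a, Cdkn2d) and 3 lower (Ccnd1, Cdkn1c, Cdkn2c), where 35.0% of all genes tested had such groups (16.5% higher, 18.5% lower). Without day-12 library 2 the same number of the genes, 4, passed. Since RNA was read from whole sorted populations, fewer cells of a type and less RNA per cell cannot be told apart in any of these values.

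**Figure D1:**
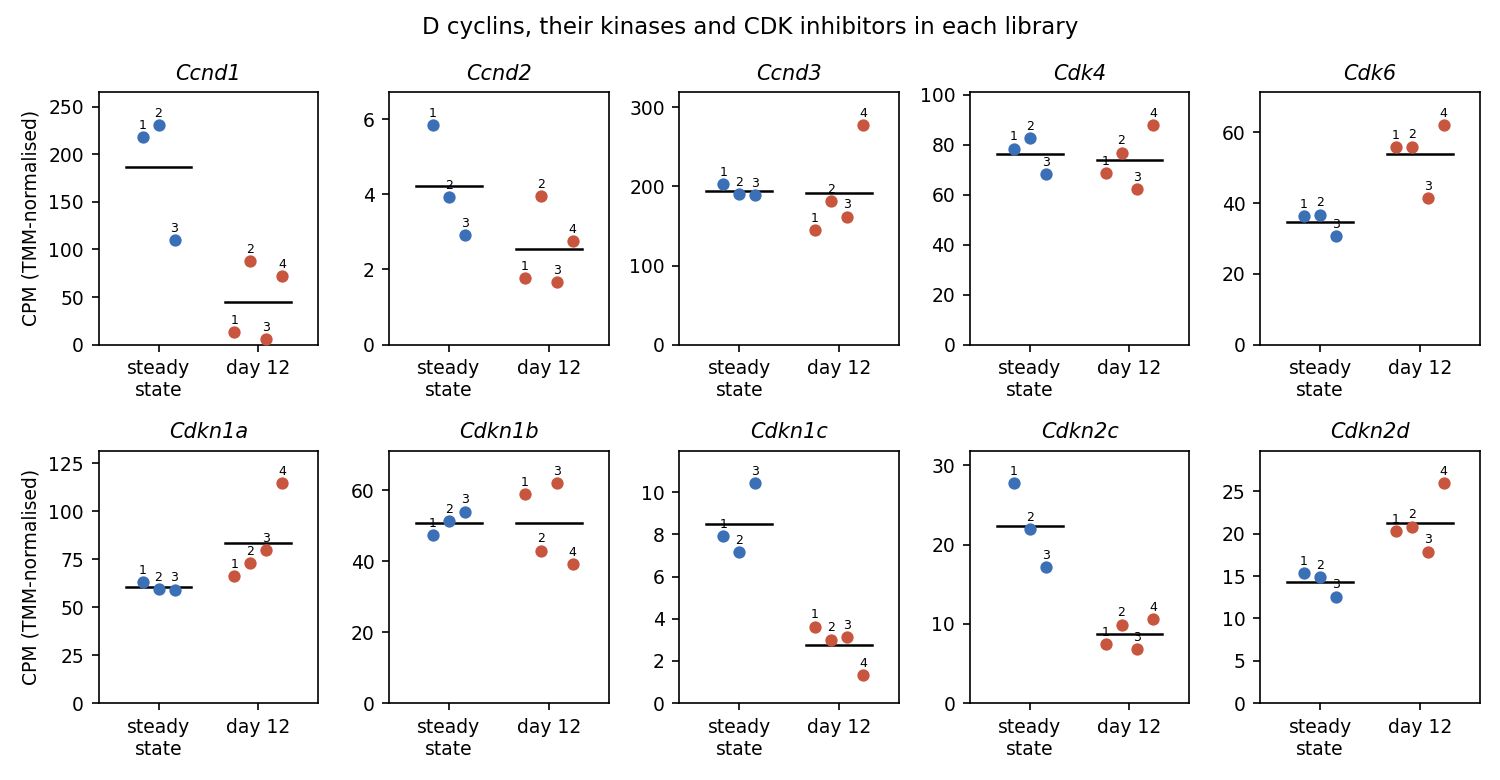
TMM-scaled CPM of each gene (vertical axis, from 0, a separate scale per panel) in 3 steady-state (blue) and 4 day-12 (red) libraries, numbered by replicate, with the group mean as a bar. Cdk6 and Cdkn2d lie higher and Cdkn1c and Cdkn2c lower in all day-12 libraries, while Ccnd1 at day 12 runs from 5.89 to 87.9 CPM.

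**Figure D2:**
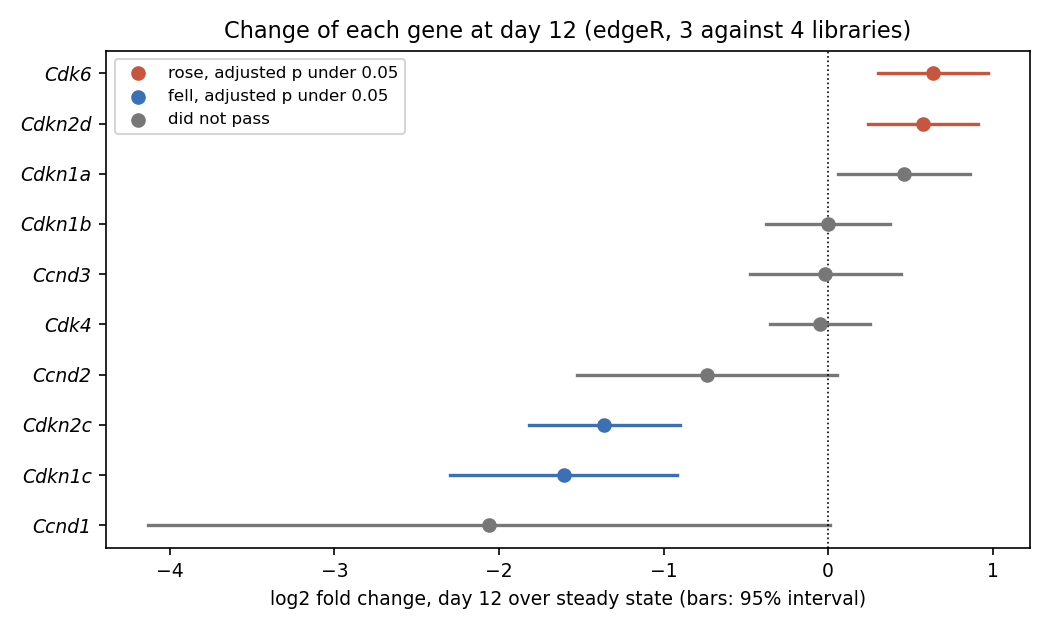
Log2 fold change of day 12 over steady state (horizontal axis) with its 95% interval for the 10 genes, from edgeR. The intervals of Cdk6 (0.30 to 0.97) and Cdkn2d (0.24 to 0.91) lie above 0, those of Cdkn2c (-1.82 to -0.90) and Cdkn1c (-2.30 to -0.92) below it, and that of Ccnd1 is the widest (-4.13 to 0.01).

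Of the D cyclins, Ccnd1 (ENSMUSG00000070348, GRCm39 chr7:144483668-144493662, minus strand), the cyclin most closely tied to growth-factor signals, gave 218, 231 and 110 CPM in steady-state libraries 1 to 3. At day 12 it gave 13.2, 87.9, 5.89 and 71.6 CPM in libraries 1 to 4, so that libraries 1 and 3 were far below libraries 2 and 4 and all 4 were below steady state. The highest day-12 library held 14.9 times the CPM of the lowest, against 2.10 times in steady state. The group means were 186 ± 66.5 and 44.7 ± 41.2 CPM (SD, n = 3 and 4). The log2 change was -2.06 with a standard error (SE) of 0.88, and the edgeR adjusted p was 0.149 (unadjusted 0.0511), so the difference did not pass against the spread of the day-12 libraries. With limma-voom, which weights libraries differently, it passed (log2 change -2.74, adjusted p = 0.0481).

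Ccnd2 (ENSMUSG00000000184, GRCm39 chr6:127102125-127129156, minus strand) was the scarcest D cyclin, with 5.84, 3.92 and 2.91 CPM in steady state and 1.78, 3.95, 1.66 and 2.76 CPM at day 12. The groups overlapped, since day-12 library 2 lay at the level of steady-state library 2. Its log2 change was -0.74 (SE 0.35, edgeR adjusted p = 0.174), on 63 to 197 reads per library. Ccnd3 (ENSMUSG00000034165, GRCm39 chr17:47815976-47910616, plus strand), the D cyclin prominent in blood cells, gave 203, 190 and 189 CPM in steady state and 145, 181, 162 and 278 CPM at day 12. Day-12 library 4 was the highest of the 7 and library 1 the lowest. The log2 change of Ccnd3 was -0.02, with a 95% interval of -0.48 to 0.44 (edgeR adjusted p = 0.964), and its sign depended on the scaling and on single libraries.

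Per kilobase of the longest coding transcript, Ccnd3 made up 61.8%, 59.1% and 75.0% of the D cyclin reads in steady-state libraries 1 to 3. At day 12 its share was 94.7%, 78.0%, 97.7% and 87.0%, higher in each of the 4 libraries than in any of steady state. Ccnd1 made up 37.6%, 40.5% and 24.6% in steady state and 4.87%, 21.4%, 2.01% and 12.7% at day 12. Ccnd2 stayed between 0.288% and 0.595% in the 7 libraries. The order in steady state depended on the length assigned to each gene: by the summed length of all annotated exons Ccnd1 held 66.1%, 68.9% and 51.6% and stood above Ccnd3. At day 12 Ccnd3 stood above Ccnd1 in each library by either length and as counted.

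**Figure D3:**
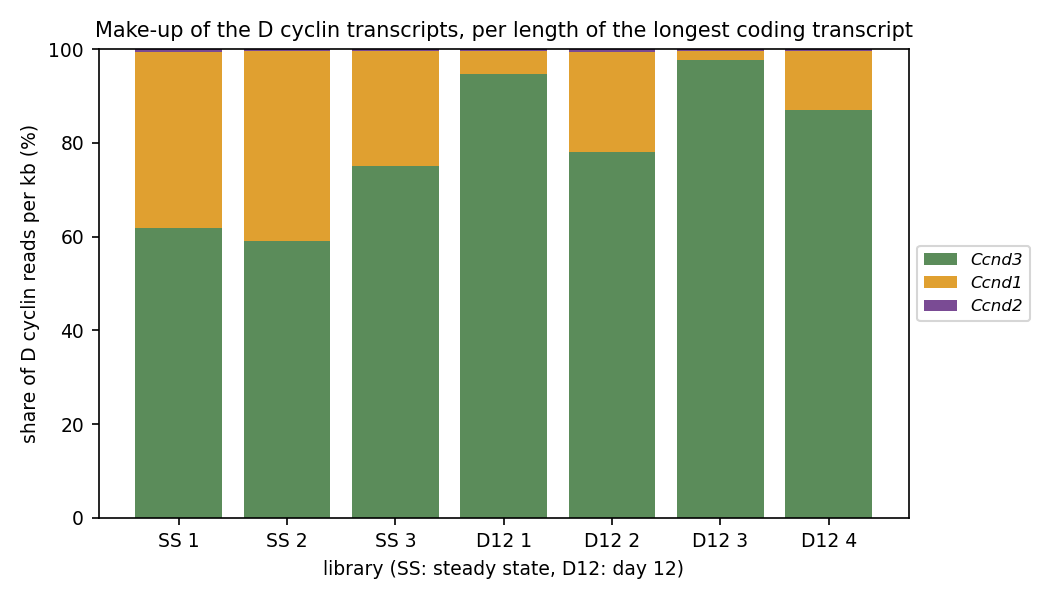
Share of each D cyclin (vertical axis, percent) in the summed D cyclin reads per kilobase of the longest coding transcript, 1 bar per library. Ccnd3 takes 59.1% to 75.0% in steady state (SS) and 78.0% to 97.7% at day 12 (D12), the rest being almost entirely Ccnd1.

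Of the partner kinases, Cdk6 passed the test and Cdk4 did not. Cdk6 (ENSMUSG00000040274, GRCm39 chr5:3391485-3581008, plus strand) gave 36.4, 36.7 and 30.7 CPM in steady state and 55.8, 55.9, 41.3 and 62.1 CPM at day 12. The groups did not overlap, and the means rose from 34.6 ± 3.41 to 53.8 ± 8.82 CPM (SD, n = 3 and 4), 1.55-fold (log2 change 0.64, SE 0.15, edgeR adjusted p = 0.0154). The call was lost without steady-state library 2 (adjusted p = 0.0503) and without steady-state library 3 (adjusted p = 0.0831), with log2 changes of 0.68 and 0.55. Cdk4 (ENSMUSG00000006728, GRCm39 chr10:126899403-126903789, plus strand) gave 78.4, 82.5 and 68.3 CPM in steady state and 68.5, 76.8, 62.1 and 87.9 CPM at day 12, with overlapping groups. Its log2 change was -0.05, with a 95% interval of -0.35 to 0.25 (edgeR adjusted p = 0.831), and its sign turned without steady-state library 2 or day-12 library 3. Cdk4 shares 641 bases with Tspan31 on the other strand (72.3 CPM in steady state, 65.2 at day 12), and no source used here says whether strand was used in counting, so its level is uncertain. Ccnd1 likewise shares 1771 bases with LTO1 on the other strand (16.6 CPM in steady state, 15.2 at day 12), a level above that of Ccnd1 in day-12 libraries 1 and 3, so its values there are uncertain too. The difference between the changes of the 2 kinases was not tested.

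Of the Cip/Kip inhibitors, Cdkn1c (ENSMUSG00000037664, GRCm39 chr7:143012076-143014787, minus strand), an imprinted gene linked to quiescence, gave 7.92, 7.14 and 10.4 CPM in steady state. At day 12 it gave 3.63, 3.02, 3.13 and 1.34 CPM, with library 4 lowest and no overlap between the groups. It fell 3.05-fold (log2 change -1.61, SE 0.31, edgeR adjusted p = 0.00622), on 255 to 326 reads per steady-state library and 46 to 137 at day 12. Leaving out any 1 library kept the call, with adjusted p-values of up to 0.0357. Cdkn1a (ENSMUSG00000023067, GRCm39 chr17:29309950-29319701, plus strand), the p53-responsive inhibitor whose upstream stretch holds the p53 element, gave 63.1, 59.5 and 59.1 CPM in steady state and 66.2, 73.1, 79.7 and 114 CPM at day 12. The groups did not overlap, but day-12 library 4 stood well above the others, and the log2 change of 0.46 (SE 0.18) did not pass (edgeR adjusted p = 0.0987). Without that library it passed at a smaller size (log2 change 0.27, adjusted p = 0.0409). Cdkn1b (ENSMUSG00000003031, GRCm39 chr6:134897364-134902476, plus strand), which restrains cyclin E-CDK2 in resting cells, gave 47.4, 51.2 and 53.9 CPM in steady state and 58.9, 43.0, 61.9 and 39.2 CPM at day 12. Its day-12 libraries fell on both sides of steady state, and the log2 change was -0.00, with a 95% interval of -0.38 to 0.37 (edgeR adjusted p = 0.991). The sign of Cdkn1b depended on the scaling.

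The INK4 genes moved in opposite directions. Cdkn2c (ENSMUSG00000028551, GRCm39 chr4:109518073-109524386, minus strand), itself a gene that E2F can switch on, gave 27.7, 21.96 and 17.2 CPM in steady state and 7.45, 9.88, 6.81 and 10.6 CPM at day 12. The groups did not overlap, and it fell 2.57-fold (log2 change -1.36, SE 0.20, edgeR adjusted p = 0.00193), a call kept without any 1 library (adjusted p of up to 0.0127). Cdkn2d (ENSMUSG00000096472, GRCm39 chr9:21199706-21202703, minus strand) gave 15.3, 14.9 and 12.6 CPM in steady state and 20.3, 20.8, 17.9 and 25.9 CPM at day 12, again without overlap. It rose 1.49-fold (log2 change 0.58, SE 0.15, edgeR adjusted p = 0.0237). It no longer passed without steady-state library 1 (adjusted p = 0.0591), 2 (0.0755) or 3 (0.115), with log2 changes of 0.65, 0.60 and 0.49.

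The remaining INK4 genes, Cdkn2a and Cdkn2b, were listed with genes of similar names that are not INK4 genes. Of these 5 genes, 0 rose and 2 fell in edgeR (median log2 change -0.68, the value of Cdkn2aipnl). Over all genes tested, 10.1% rose and 10.2% fell. Cdkn2b (GRCm39 chr4:89224536-89229276), which encodes p15-INK4b, an inhibitor induced by TGF-beta, gave 9.67, 16.1 and 11.6 CPM in steady state and 2.94, 2.74, 4.998 and 4.27 CPM at day 12. It fell with a log2 change of -1.74 (SE 0.26, edgeR adjusted p = 0.00179). Cdkn2aipnl, whose product resembles a partner of the Cdkn2a protein ARF, fell as well (32.5 ± 2.68 to 20.2 ± 0.769 CPM, log2 change -0.68, edgeR adjusted p = 0.00185). Cdkn2a (GRCm39 chr4:89192708-89212890), which encodes both p16-INK4a and ARF and whose reads were not split between them, gave 4.18, 7.31 and 7.25 CPM in steady state and 10.997, 7.01, 16.02 and 16.9 CPM at day 12. Its log2 change of 1.03 (SE 0.32) missed the threshold in edgeR (adjusted p = 0.0519) and passed in DESeq2 (adjusted p = 0.00801). With upper-quartile factors, with library totals and with the filter of 1 CPM in 3 libraries it passed in edgeR. It also passed in edgeR without day-12 library 2 (log2 change 1.26, adjusted p = 0.0148).

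On the scale of CPM per kilobase of the longest coding transcript, the steady-state levels ran from Ccnd3 (91.7 ± 3.60, SD, n = 3) through Ccnd1 (49.8 ± 17.8), Cdk4 (37.2 ± 3.57), Cdkn1a (29.1 ± 1.05), Cdkn1b (11.2 ± 0.723), Cdkn2d (10.01 ± 1.04), Cdkn2c (9.02 ± 2.13), Cdkn1c (4.47 ± 0.899) and Cdk6 (3.00 ± 0.296) to Ccnd2 (0.667 ± 0.236). The libraries of Ccnd1 and Cdk4 overlapped, as did those of Cdkn1b, Cdkn2d and Cdkn2c, whereas the other neighbours in the order did not. Cdk4 stood above Cdk6 in every library of both groups on this scale. At day 12 the levels of Cdkn1a (40.1 ± 10.3, n = 4) and Cdk4 (35.9 ± 5.42) followed Ccnd3 (90.6 ± 28.1), with overlap between Cdkn1a and Cdk4. Ccnd1 (11.9 ± 11.02) then lay among Cdkn2d (14.9 ± 2.38) and Cdkn1b (11.1 ± 2.49). Cdk6 (4.67 ± 0.765) and Cdkn2c (3.51 ± 0.743) overlapped as well, and Cdkn1c (1.46 ± 0.525) and Ccnd2 (0.400 ± 0.168) were the lowest. The order depended on the length used. The summed annotated exons of Ccnd3 span 8775 bases and its longest coding transcript 2113. For Cdk4 the lengths were 3249 and 2053 bases, and for Cdkn1a 3553 and 2080. By the exon length the mean of Ccnd3 led in neither group.

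The genes with profiles most like those of the 4 that passed were sought among 9379 genes by the root mean square difference of centred log2 CPM over the 7 libraries. Cdkn2d was the third nearest gene to Cdk6 (0.0860), and both lay close to Cinp (0.0702 from Cdk6, 0.0662 from Cdkn2d), whose product binds CDK2 and replication factors, and Dmac1 (0.0844 and 0.0654), a mitochondrial assembly factor. The third nearest gene to Cdkn2d was the glutamine transporter gene Slc1a5 (0.0665). The genes nearest to Cdkn2c were H2az1 (0.169), which encodes the histone variant H2A.Z, Kif3c (0.194) and Septin6 (0.196). Those nearest to Cdkn1c were Blnk (0.174), an adaptor of B cell receptor and macrophage signalling, St8sia4 (0.192) and Qpct (0.210). These distances describe 7 libraries that share the contrast that singled out the 4 genes.

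Downstream of the D cyclin kinases, the list of pocket proteins and E2F-DP factors held 18 genes, of which 0 rose and 0 fell in edgeR (median log2 change -0.15), 0 higher and 5 lower at an unadjusted p of 0.05, and 0 passed in DESeq2 or limma-voom. Rb1, the target of CDK4 and CDK6, had a mean of 57.6 ± 3.38 CPM in the controls, against 44.9 ± 8.74 CPM later (log2 change -0.36, edgeR adjusted p = 0.142). Without day-12 library 4 it was the 1 gene of the list that passed (log2 change -0.22, adjusted p = 0.0431). The lowest p-values belonged to Rbbp4 (log2 change -0.32, edgeR adjusted p = 0.0995) and Lin9 (log2 change -0.55, edgeR adjusted p = 0.106), a chromatin factor that binds Rb and a subunit of the DREAM complex.

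The next list held E, A and B cyclins, their CDKs and the enzymes that activate or restrain them. Of its 15 genes tested, 0 rose and 2 fell (median log2 change -1.15), against 10.1% and 10.2% of all genes tested. The log2 changes ran from -2.09 to 0.35. Cdc25b, a phosphatase that activates CDKs, fell from 24.6 ± 6.23 to 6.48 ± 3.43 CPM (log2 change -1.93, edgeR adjusted p = 0.0132), and Wee1, a kinase that restrains them, from 5.44 ± 2.73 to 1.74 ± 0.898 CPM (log2 change -1.64, edgeR adjusted p = 0.0335). Both calls were lost without steady-state library 1 (adjusted p = 0.0542 and 0.169) and without a filter on low counts. That of Wee1 was also lost without steady-state library 2 (0.0784) or day-12 library 1 (0.0587) or 3 (0.0683).

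Of 28 E2F-driven genes of DNA replication and division, 0 rose and 0 fell in edgeR (median log2 change -0.69). At an unadjusted p of 0.05 in edgeR, 0 were higher and 2 lower. Past the adjusted threshold, 1 was lower in DESeq2 and 0 in limma-voom. Their summed level was 1022, 667 and 382 CPM in steady state and 250, 620, 257 and 534 CPM at day 12, so day-12 libraries 2 and 4 lay within the range of steady state and libraries 1 and 3 below it. The same 2 libraries, 1 and 3, were the low ones for Ccnd1 (13.2 and 5.89 CPM) and Ccnd2. Mki67, a marker of dividing cells, is part of the summed list. It gave 177, 88.7 and 53.3 CPM in steady state and 13.4, 72.7, 15.2 and 49.8 CPM at day 12 (log2 change -1.49, edgeR adjusted p = 0.178). The lowest p-values of the list were those of Rpa2 (log2 change -0.64, edgeR adjusted p = 0.111) and Ccne2 (log2 change -1.62, edgeR adjusted p = 0.134), and Ccne2 passed without day-12 library 2 (log2 change -2.37, adjusted p = 0.0245). Cdkn2c was lowest in libraries 1 and 3 within the day-12 group. In steady state it had the order of the summed level (27.7, 21.96 and 17.2 CPM in libraries 1 to 3). Its groups did not overlap (highest day-12 library 10.6 CPM). The share of dividing cells was not measured, and its part in these values was not tested.

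**Figure D4:**
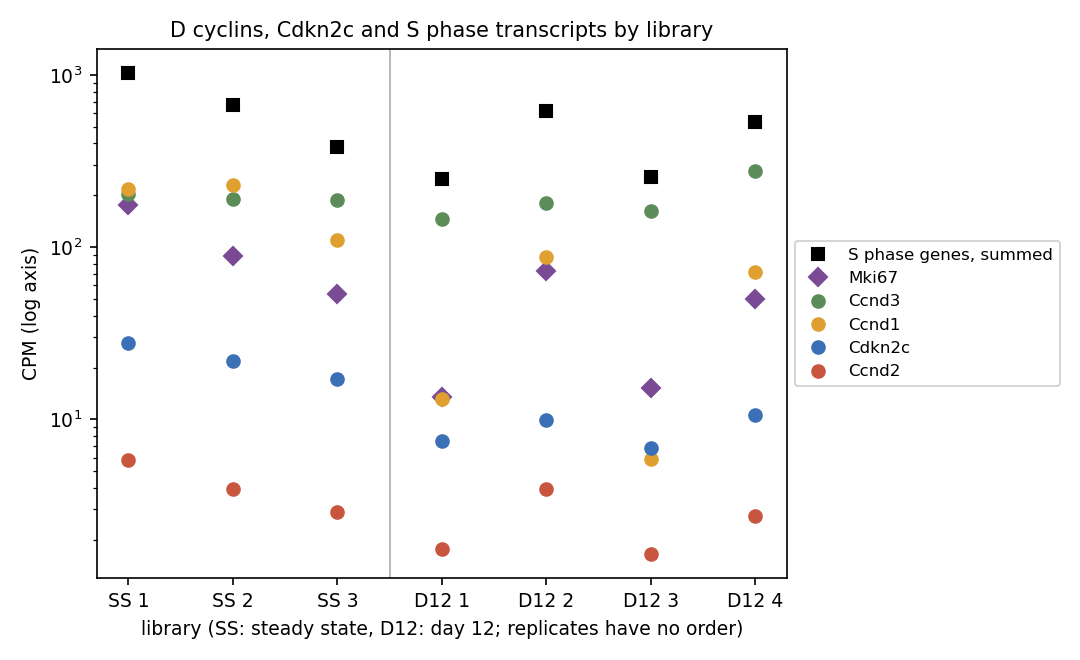
CPM on a log axis (vertical) of the summed S phase genes, Mki67, Cdkn2c and the D cyclins in each library (SS steady state, D12 day 12). The sum includes Mki67. At day 12 Ccnd1, Ccnd2, Mki67 and the S phase sum are low in libraries 1 and 3 and higher in 2 and 4, while Ccnd3 lies between 145 and 278 CPM.

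Of 21 genes that act in the turnover or assembly of D cyclins and p27, 1 rose and 1 fell (median log2 change -0.13). Over all genes tested, 10.1% rose and 10.2% fell. Hsp90ab1, a chaperone of CDK4, fell from 1082 ± 63.6 to 824 ± 15.7 CPM (log2 change -0.39, edgeR adjusted p = 0.0243). Cryab, a partner of a cyclin D1 ubiquitin ligase, rose from 0.131 ± 0.0408 to 0.597 ± 0.296 CPM, near the floor of 3 counts (log2 change 2.17, edgeR adjusted p = 0.0233). The call of Hsp90ab1 was lost without any 1 of the 6 libraries other than day-12 library 4 (adjusted p of 0.0525 to 0.136), and that of Cryab without any steady-state library or day-12 library 1 (0.0528 to 0.103).

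Genes of the p53 pathway moved both ways around Cdkn1a. Of 28 tested, 3 rose and 6 fell (median log2 change -0.19), against 10.1% and 10.2% of all genes tested. Plk2, a kinase induced by p53, rose from 41.2 to 43.3 CPM in steady state to 76.6 to 129 CPM (log2 change 1.21, edgeR adjusted p = 0.00182), and Btg2, an antiproliferative factor, from 160 ± 2.20 to 269 ± 44.8 CPM (log2 change 0.75, edgeR adjusted p = 0.00575). Sesn1, a stress-induced brake on mTORC1, fell from 194 ± 15.2 to 77.3 ± 11.2 CPM (log2 change -1.33, edgeR adjusted p = 0.000242), and Bbc3, which encodes the death factor PUMA, from 10.6 ± 2.22 to 4.97 ± 0.947 CPM (log2 change -1.09, edgeR adjusted p = 0.0055). Trp53 itself gave 56.5 ± 2.46 and 62.0 ± 12.4 CPM (log2 change 0.13, edgeR adjusted p = 0.579). The number that fell was 3 without steady-state library 1, 2 without library 2 or library 3, 3 without day-12 library 1, and 11 without day-12 library 4.

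**Figure D5:**
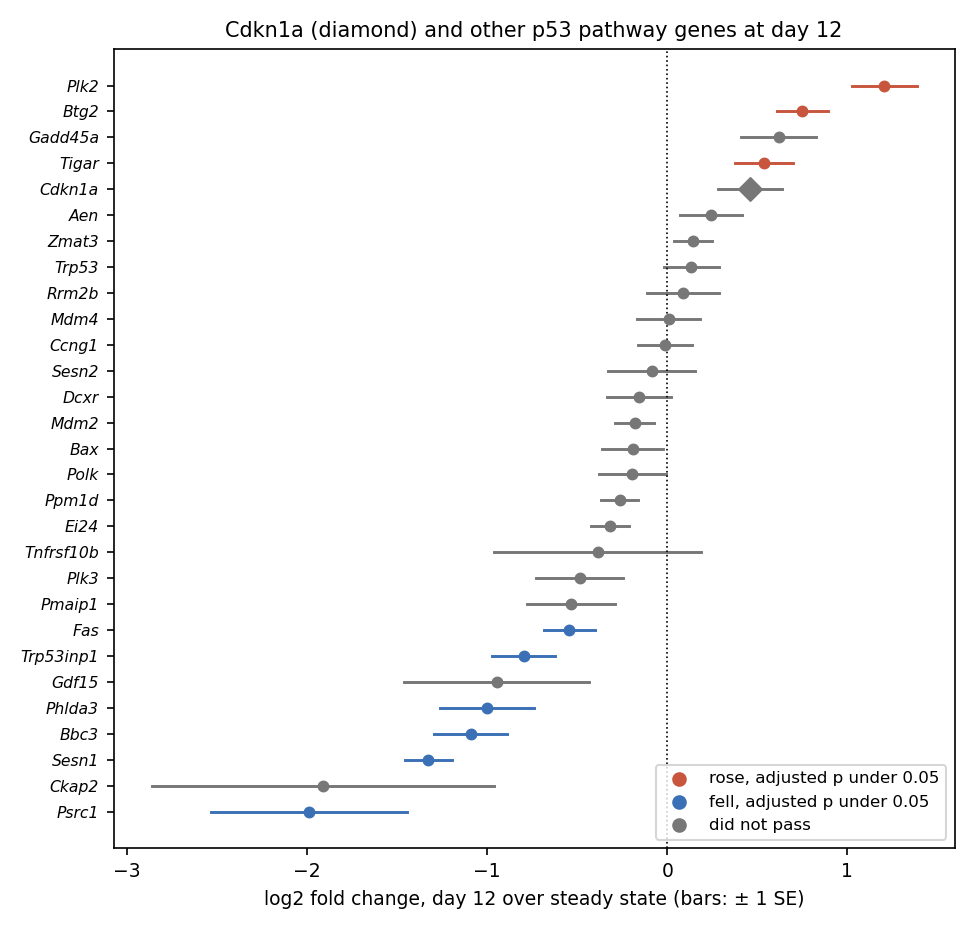
Log2 fold change of day 12 over steady state (horizontal axis, bars ± 1 SE) for Cdkn1a (diamond) and the 28 other p53 pathway genes tested. Plk2, Btg2 and Tigar rose (red), 6 genes fell (blue) and Cdkn1a, at 0.46, did not pass (grey).

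Of 31 mitogen-responsive and FOXO-pathway regulators of these genes, 5 rose and 7 fell (median log2 change -0.09). Over all genes tested, 10.1% rose and 10.2% fell. The immediate-early genes Egr1 (6.56 ± 1.16 to 44.2 ± 11.5 CPM, log2 change 2.75, edgeR adjusted p = 0.000109) and Fos (48.6 ± 17.7 to 251 ± 44.5 CPM, log2 change 2.37, edgeR adjusted p = 0.000382) rose. Tcf7l2, a partner of beta-catenin, rose too (log2 change 0.88, edgeR adjusted p = 0.0013). Foxo3, a factor known to switch on Cdkn1b, fell from 82.0 ± 7.46 to 47.1 ± 2.78 CPM (log2 change -0.80, edgeR adjusted p = 0.000826), while Cdkn1b had a log2 change of -0.00. Myc, which binds the E-box, gave 54.4 ± 10.4 and 68.0 ± 18.0 CPM (log2 change 0.32, edgeR adjusted p = 0.324). The number that rose was 5 or 6 without any 1 library, and the number that fell was 2 without any 1 steady-state library, 3 and 4 without day-12 libraries 1 and 2, and 11 without day-12 library 4.

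Of 15 regulators of macrophage self-renewal, 5 rose and 5 fell (median log2 change 0.05), against 10.1% and 10.2% of all genes tested. Bhlhe41, a repressor linked to self-renewal of resident macrophages, fell from 13.8 ± 0.394 to 0.426 ± 0.214 CPM (log2 change -5.01, edgeR adjusted p = 4.97e-05), while its relative Bhlhe40 rose from 206 ± 12.3 to 483 ± 61.4 CPM (log2 change 1.23, edgeR adjusted p = 0.000353). Klf4 rose (70.9 ± 12.2 to 471 ± 109 CPM, log2 change 2.73, edgeR adjusted p = 9.11e-05) and Tcf4 fell (86.0 ± 9.42 to 36.1 ± 5.50 CPM, log2 change -1.25, edgeR adjusted p = 0.00046). Maf, whose product holds macrophages out of the cell cycle, fell as well, from 198 ± 44.7 to 99.4 ± 5.93 CPM (log2 change -0.99, edgeR adjusted p = 0.00185). With any 1 steady-state library left out, 3 genes of the list rose and 3 fell, and 3 fell without day-12 library 1, 2 or 3.

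Of 29 cyclins and CDKs that act mainly outside the cell cycle, 1 rose and 3 fell (median log2 change -0.06). Over all genes tested, 10.1% rose and 10.2% fell. Cdk18 rose from 4.41 ± 0.407 to 13.6 ± 2.78 CPM (log2 change 1.63, edgeR adjusted p = 0.000504). Ccni, an atypical cyclin, fell from 137 to 140 CPM in steady state to 87.1 to 99.1 CPM (log2 change -0.62, edgeR adjusted p = 0.00193). Cdk14 and Cdk19 fell less (log2 changes -0.51 and -0.48, edgeR adjusted p = 0.017 and 0.0195), and both calls were lost without any 1 steady-state library, with adjusted p-values of 0.0591 to 0.0862. Without day-12 library 4, 4 genes rose and 4 fell.

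Markers of other cell types moved between the groups beside these results. The 12 B cell markers summed to 7.199 to 11.4 CPM in steady state and 25.2 to 57.4 CPM at day 12, with 9 rising (5 without steady-state library 2), and were highest in day-12 library 2. The 10 monocyte and dendritic cell markers summed to 78.3 to 102 and 222 to 403 CPM, with 2 of 6 tested rising and 1 falling. The 14 T and NK cell markers summed to 4.93 to 8.11 and 2.15 to 6.18 CPM, and of 4 tested Gzma and Lck rose and Cd28 fell (4.27 ± 1.42 to 0.245 ± 0.0715 CPM). Without day-12 library 2, 3 or 4, 0 of them rose, and 1 rose without steady-state library 1 or 2. The 11 markers of mast cells, basophils and eosinophils summed to 1.72 to 1.85 and 1.47 to 2.84 CPM. Of the 10 neutrophil markers, the summed 432 to 448 and 110 to 199 CPM came almost entirely from Csf3r, and Ly6g was at 0 in all 7 libraries. The 10 erythroid and platelet markers summed to 465 to 697 CPM in steady state and, at day 12, to 16.1 to 81.4 CPM, nearly all of it Pf4, which fell. The 11 mesothelial and stromal markers summed to at most 0.224 CPM in steady state and 1.16 to 1.54 CPM at day 12, and the 11 epithelial markers to 0.112 to 0.356 and 2.04 to 3.13 CPM, mostly Cdh1. The part of these cells in the changes of Cdk6, Cdkn1c, Cdkn2c and Cdkn2d was not tested.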

How the data were processed

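Per the labels' protocols, 30 ng of total RNA per library went into poly-A-selected directional libraries read as 100-nt single reads. The authors deposited raw, unnormalised read counts per gene; per the submitters' processing notes STAR 2.7.11a, featureCounts (Subread 2.0.6), SAMtools 1.10, FastQC and DESeq2 1.40.2 were used with GRCm39. No source used here names the annotation release, the strand setting or the handling of multi-mapping reads. Such settings could change the counts of overlapping genes.

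The titles of the samples gave the groups and the replicate numbers. The extract protocol speaks of 3 replicates per condition, the titles of 4 at day 12. Genes passed filterByExpr (minimum count 10, minimum total 15). TMM scaling and edgeR 4.0.16 (robust quasi-likelihood, R 4.3.3) were used with group as the term, and p-values were adjusted over 15981 genes at 0.05. The procedure was also run on simulated data with the dispersions of the same fit. That run cannot show how it performs on these libraries. The genes and lists were chosen with earlier results of these data known. By rule the text names the 10 genes, up to 4 genes per list that passed with the smallest p (2 genes where 0 passed), Cdkn2a, Cdkn2b, Rb1, Trp53, Mki67, Myc, Maf, and the 3 nearest profiles of each called gene among genes of at least 5 CPM (log2 CPM, prior count 2). Tigar and the cell type markers are named outside it, and 1 item is not reported here. Lengths came from GENCODE vM21 and promoters from RefSeq on GRCm38.p6. Alternatives were other scalings, DESeq2 1.42.0, limma-voom (limma 3.58.1), other filters (none, or 1 CPM in 3 libraries), a replicate block, non-robust estimation and leaving out each library.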

Additional observations from a re-analysis of the deposited data

Results flagged for a closer look

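Among the genes named here, 2 had a day-12 library far from the other 3. Rb1 gave 31.8 CPM in day-12 library 4, against 48.1 to 49.9 CPM in libraries 1 to 3. Ccni gave 99.1 CPM in day-12 library 3, against 87.1 to 88.1 CPM in the others. The gap was compared with the range of the 4 libraries, a comparison that chance alone passes in about 1 in 20 groups. It was made for every gene named by rule, so a few such gaps would arise by chance alone.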

How the results depend on the processing

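The count of D cyclin, CDK and inhibitor genes that passed was 4 under each other scaling, filter and DESeq2, and 5 with limma-voom, where Ccnd1 joined. Leaving out 1 library gave 2 to 5, with 2 without steady-state library 2 or 3. Over all genes the count was 3242, and 1761 to 4599 with 1 library left out (1868, 1804 and 1761 without steady-state libraries 1, 2 and 3). Cdkn1c and Cdkn2c passed under each alternative run. Over the 10 genes and the alternatives, 135 values kept their direction and side of the threshold, 5 lost the call, 2 gained it and 18 changed sign, the last all in genes that did not pass. Over all named genes, these 10 included, the numbers were 750, 46, 16 and 19. The sign of Cdkn1b turned to 0.00888 with DESeq2 size factors, 0.00885 with DESeq2, 0.0369 with upper-quartile factors, 0.0188 with library totals, 0.0319 with the filter of 1 CPM and 0.0867 with the replicate block, and ranged from -0.11 to 0.10 with 1 library left out. Ccnd3 turned to 0.0254 with upper-quartile factors, 0.00417 with library totals and 0.0223 with the filter of 1 CPM, and ranged from -0.25 to 0.11 with 1 library left out. Cdk4 ranged from -0.14 to 0.0261 with 1 library left out, and Trp53 was -0.00335 with the block; the cause was not tested. The labels state no pairing by replicate number. Deviations of same-numbered libraries correlated at -0.14, 0.01 and 0.20, and those of other pairs across the groups at -0.20 to 0.19. So few values cannot settle whether libraries were paired. With the replicate block 4278 genes passed (1989 higher, 2289 lower) and 4 of the 10 genes, day-12 library 4 being alone in its block; the block added or removed no call among the 10. With the block 1 gene rose and 0 fell in the list of E, A and B cyclins, their CDKs and the enzymes acting on them. In the turnover list the numbers were 0 and 4 (Cryab lost its call), and in the p53 list 3 and 10. They were 6 and 11 among mitogen and FOXO regulators, and 4 and 4 among other cyclins and CDKs. Genes with under 1 CPM rest on few reads, and their changes are the least certain.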
